A study of Mus musculus with 4 samples.

Results

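The cluster from miR-379 to miR-410 is a run of microRNA hairpins in the imprinted Dlk1-Dio3 domain of mouse chromosome 12. Its members were taken by name from a TaqMan survey of whole embryos: an assay belongs if its name, without species prefix, arm or star, is 1 of 35 hairpin names of that run. That rule found 38 of the 375 microRNA assays, 33 with a mouse (mmu) and 5 with a rat (rno) sequence name. They cover 30 of the 35 hairpins; the other 5 were not analysed here. The samples were whole C57BL/6 embryos at E18.5, 2 labelled wild-type and 2 labelled ER-alpha KO, labelled as knockouts of estrogen receptor alpha, a hormone-activated transcription factor. The labels give no allele, sex or litter for the knockout. Whether each sample is a single embryo or a pool is not stated either, so the p-values reflect the spread among these 4 samples alone, which may be technical. The panel reads microRNAs, and the knockout was not checked at the transcript of its target here.

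Genes of the Dlk1-Dio3 domain are expressed from 1 parental chromosome only, and its microRNAs come from the maternal one. The cluster lies within long noncoding RNA of that chromosome, from which many hairpins are cut, so its members share a primary transcript while each mature strand is processed and kept on its own. In mouse these microRNAs are most abundant in embryo, placenta and brain, and some, such as miR-134 and miR-329, are known for regulating dendrites of neurons. A microRNA finds its targets mainly through its seed, the bases 2 to 8 from its 5′ end.

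Mature sequences of 31 of the 33 mouse assays were found in RefSeq (GRCm38.p6). Their hairpins lie on the plus strand between the start of the miR-379 and the end of the miR-410 hairpin, chr12:109709060-109743795. The arm was part of the assay name, or the reference had 1 form only, for 11 of the 31. For the other 20 it was taken from the older naming of the main strand, which the files do not state. In the list, assays named without an arm rest on that older naming. The following sequences are of assays described in these results, 5′ to 3′ with the seed in capitals.
mmu-miR-379: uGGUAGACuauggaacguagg
mmu-miR-411: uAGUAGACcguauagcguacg
mmu-miR-329: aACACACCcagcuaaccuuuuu
mmu-miR-679: gGACUGUGaggugacucuuggu
mmu-miR-666-5p: aGCGGGCAcagcugugagagcc
mmu-miR-543: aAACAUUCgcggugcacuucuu
mmu-miR-495: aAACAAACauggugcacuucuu
mmu-miR-376b: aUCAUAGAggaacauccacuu
mmu-miR-376a: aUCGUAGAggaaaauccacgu
mmu-miR-381: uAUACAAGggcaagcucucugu
mmu-miR-539: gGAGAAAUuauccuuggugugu
mmu-miR-496: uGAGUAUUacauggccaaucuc
mmu-miR-377: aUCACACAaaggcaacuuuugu
mmu-miR-409-3p: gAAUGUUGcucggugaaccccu
mmu-miR-409-5p: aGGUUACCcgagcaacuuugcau
mmu-miR-410: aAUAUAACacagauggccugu
The 31 mature sequences had 31 different seeds, so no 2 of these assays share one. The most alike were mmu-miR-376a and mmu-miR-376b, identical at 18 of 21 positions counted from the 5′ end and at 6 of 7 seed positions. The sequences of mmu-miR-495 and mmu-miR-543 were identical at 18 of 22 positions and at 5 of 7 in the seed, and those of mmu-miR-379 and mmu-miR-411 at 14 of 21 and 6 of 7. The seeds differ at 1 or more positions in each of these pairs. Whether the assays of such pairs read each other's target was not tested. Over both arms of the cluster's hairpins, 65 mature sequences, the run GUUGCCC stood in 5 (7.69%), all of the 5′ arm, and the run GGUCCAC in 5, all of the 3′ arm. Of the 1614 other mouse mature sequences of the reference, 0 held GUUGCCC and 0 held GGUCCAC. Both runs were picked because they recur in the cluster, searched on the mature strand only, and are given as a description.

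Readings are threshold cycles (Ct): the earlier an assay crosses the threshold, the more template it had, and 1 cycle is treated as 1 log2 unit. An assay was called detected at a Ct of 35 or lower, and those detected in all 4 samples were tested. Over the whole panel 254 to 290 microRNAs were detected per sample and 229 of 375 in all 4 (61.1%). Wild-type replicate 1 stood apart: all its wells other than U6 carry the same added constant of 0.273 cycles, and once it was taken off, its readings in all 26 tested cluster assays lay within 0.1 cycle of a whole cycle. In wild-type replicate 2 and the ER-alpha KO replicates 1 and 2, 12, 7 and 6 of the 26 did, where 20% is the share of a cycle within that tolerance. Readings of wild-type replicate 1 on such a grid are no finer than about 1 cycle, so the digits printed for it overstate its precision. Most fold changes given below for single assays are printed with and without that sample. Counts of assays whose genotypes do not overlap include it.

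Most of the cluster was detected in the embryos of both genotypes. Of its 38 assays, 26 (68.4%), from 24 hairpins, were detected in all 4 samples, beside 61.1% of the panel. Another 4 were detected in 3 samples, 1 in 2, 5 in 1 and 2 in none, the last beside 16.8% of the panel. Wild-type replicates 1 and 2 had 34 and 29 detected, and ER-alpha KO replicates 1 and 2 had 29 and 31. Detection in both knockout and no wild-type samples occurred for 0 cluster assays, and the reverse for 0, against 2 and 0 over the whole panel.

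The tested assays spanned mean Ct values from 22.7 to 33.7. Different assays may amplify with different efficiency, so their order is only a rough one. The earliest was mmu-miR-411, with wild-type Ct values of 24.3 and 22.1 and knockout Ct values of 22.2 and 22.2. It was followed by mmu-miR-409-3p, with 25.2 and 23.1 in wild-type and 23.2 and 23.3 in knockout samples. Next was mmu-miR-539, with 26.2 and 23.0 in wild-type and 23.2 and 23.0 in knockout samples. For all 3, wild-type replicate 1 was the late sample and the other 3 samples lay within 0.163, 0.181 and 0.252 cycles of each other. The same held for mmu-miR-410 (26.2 and 24.4 in wild-type, 24.2 and 24.4 in knockout) and for mmu-miR-379 (25.2 and 23.7, 23.5 and 23.9). Over wild-type replicate 2 and both knockout samples, 12 of the 26 cluster assays stayed within 0.5 cycle, beside 42.4% of all tested assays. The median range was 0.557 cycles in the cluster and 0.573 outside it.

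Levels were then set relative to the median Ct of each sample over the 229 tested assays. This reduced the late reading common to wild-type replicate 1 but left an offset. The median log2 fold change of all tested assays, knockout over wild-type, was 0.55 unscaled and 0.26 after this centring. It was -0.05 when samples were centred on their average profile. On the sample-median log2 scale the median cluster assay stood at 0.98 and 0.35 in wild-type replicates 1 and 2, and at 1.29 and 0.54 in ER-alpha KO replicates 1 and 2. The knockout samples thus fell on either side of wild-type replicate 1, and the spread within a genotype (SD 0.45 and 0.52, n = 2 each) exceeded the difference of the means, 0.66 in wild-type and 0.91 in knockout.

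**Figure D1:**
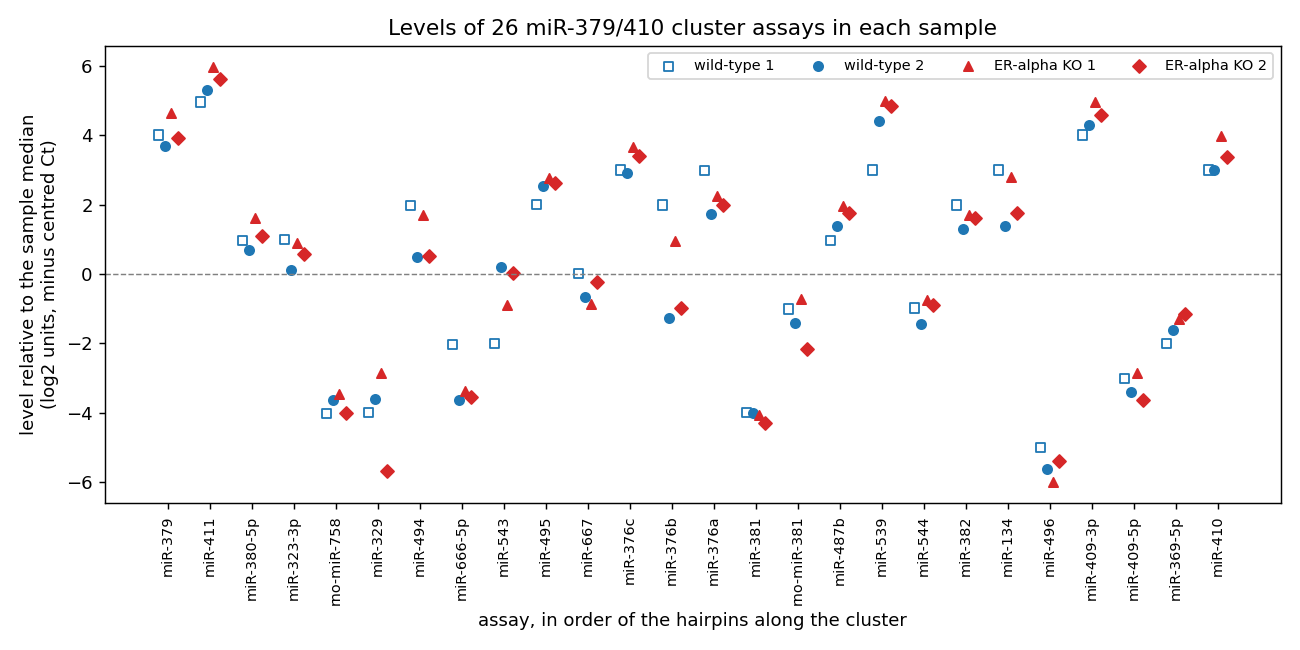
Level of each of the 26 tested cluster assays in each sample (y axis, log2 units relative to the sample's median tested assay), with assays along the x axis in the order of their hairpins and the mmu prefix left out. Each marker is 1 sample; mmu-miR-411 is the highest at 4.96 to 5.98, and for most assays the markers of the genotypes interleave.

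The comparison of ER-alpha KO with wild-type asked which members differ between the genotypes. None of the 26 passed: 0 had an adjusted p under 0.05 by limma over all 229 assays, where the share of all assays called was 0%, and the smallest adjusted p in the cluster was 0.939. Without adjustment 0 of the 26 had a limma p under 0.05, beside 4.37% of all tested assays. With ordinary variances mmu-miR-376c alone did (limma adjusted p = 0.785), and with limma's trend and robust settings mmu-miR-539 alone did (limma adjusted p = 0.321). The standard error of each log2 fold change was 0.64, so a 95% interval reaches 1.25 log2 units to either side, and a change under 2.38-fold could not reach an unadjusted p of 0.05 in a single assay. The log2 fold changes ranged from -0.62 to 1.21 in the cluster, with a median of 0.14, and from -2.18 to 1.59 over all tested assays, with a median of 0.26. Since that overall median moves with the way samples are centred, fold changes are given below minus the median of all tested assays and called relative. The cluster's relative median was -0.12, with 12 of 26 assays above 0, beside 49.8% of all tested assays. Without wild-type replicate 1 the relative median was 0.13 and 16 of 26 were above 0, again beside 49.8%. Of the 26 assays, 8 changed side when that sample was left out, beside 30.1% of all tested assays. A relative change of 1 log2 unit or more was seen in 0 of the 26 and in 7.86% of all. The SD of the log2 fold changes was 0.46 over the cluster and 0.60 over the 203 tested assays outside it, and 0.43 and 0.51 without wild-type replicate 1.

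**Figure D2:**
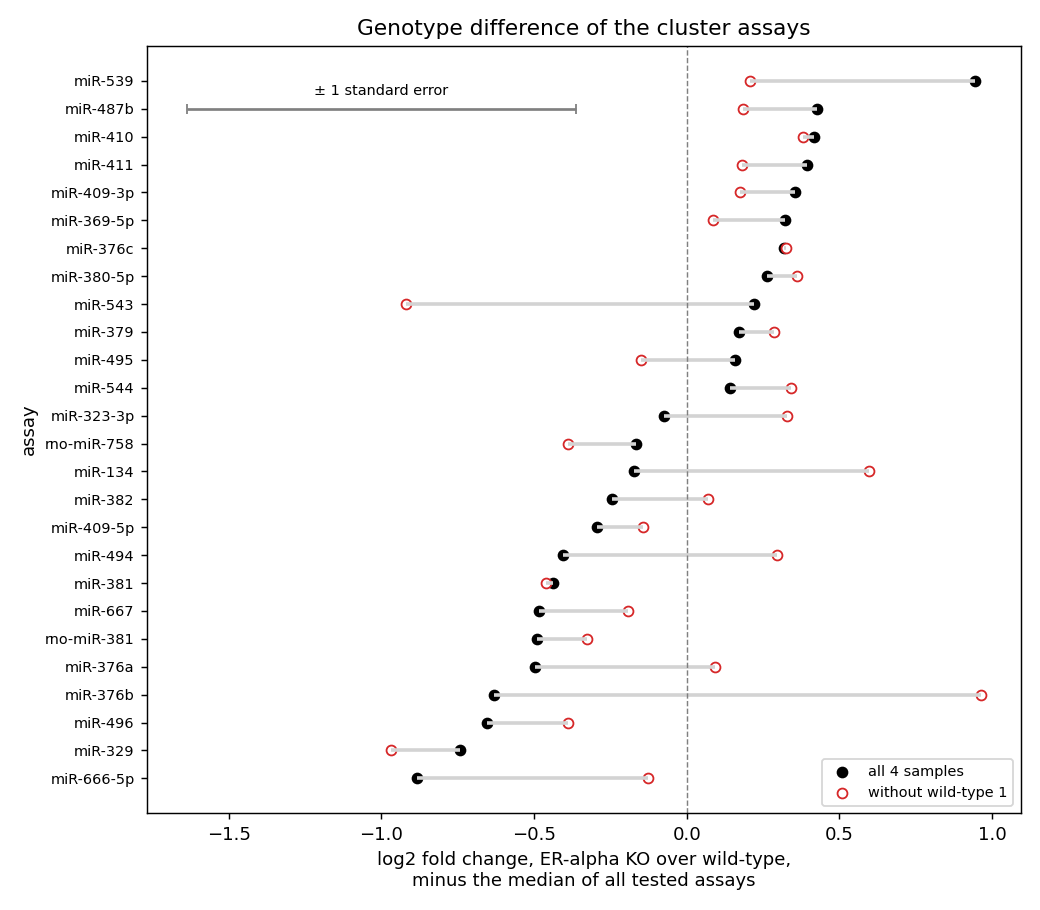
Log2 fold change of ER-alpha KO over wild-type minus the median of all 229 tested assays (x axis), for each tested cluster assay (y axis), with all 4 samples (filled) and without wild-type replicate 1 (open); the bar marks 1 standard error, 0.64, to either side. The filled points run from -0.88 for mmu-miR-666-5p to 0.95 for mmu-miR-539, and the longest connecting line is that of mmu-miR-376b.

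In 10 of the 26 assays both knockout samples lay above both wild-type samples, and in 1 both lay below, beside 33.2% and 6.11% of all tested assays. Centred on the average profile of the samples the counts were 7 and 2, beside 20.5% and 18.3%. The assays above were mmu-miR-539, mmu-miR-487b, mmu-miR-410, mmu-miR-411, mmu-miR-409-3p, mmu-miR-369-5p, mmu-miR-376c, mmu-miR-380-5p, mmu-miR-495 and mmu-miR-544. With centring on the average profile, mmu-miR-369-5p, mmu-miR-495 and mmu-miR-544 overlapped. The assay below was mmu-miR-381, joined by mmu-miR-666-5p with that centring.

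The highest fold change was that of mmu-miR-539. Its levels were 2.999 and 4.40 in the wild-type samples, and 4.98 and 4.84 in the knockout samples, so wild-type replicate 1 was the low sample and the other 3 lay close together. The relative log2 fold change was 0.95 (1.93-fold; limma adjusted p = 0.939), and 0.21 without wild-type replicate 1. Without wild-type replicate 2 it was 1.69, and the log2 fold change itself, 1.91, passed (limma adjusted p = 0.0292), in a fit that takes the lone wild-type sample to vary as the knockout samples do.

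The levels of mmu-miR-487b were 0.97 and 1.38 in wild-type samples and 1.96 and 1.77 in knockout samples. Those of mmu-miR-410 were 2.995 and 2.996 against 3.97 and 3.38, and those of mmu-miR-411 were 4.96 and 5.31 against 5.98 and 5.61. The near equality of the wild-type levels of mmu-miR-410 is no measure of precision, since wild-type replicate 1 was read in whole cycles. For these 3 assays the groups did not overlap, but the gap was smaller than 1 log2 unit. It was also smaller than the standard error once set relative to all assays. Relative log2 fold changes were 0.43, 0.42 and 0.39, and 0.18, 0.38 and 0.18 without wild-type replicate 1. For mmu-miR-409-3p the levels were 4.004 and 4.29 in wild-type samples and 4.96 and 4.57 in knockout samples. The relative log2 fold change was 0.35, and 0.17 without wild-type replicate 1. For mmu-miR-369-5p the levels were -2.01 and -1.61 against -1.31 and -1.14. Its relative log2 fold change of 0.32 became 0.09 without wild-type replicate 1 and -0.02 without ER-alpha KO replicate 2. The levels of mmu-miR-376c were 2.999 and 2.91 in wild-type samples and 3.65 and 3.41 in knockout samples, the value least moved by leaving out wild-type replicate 1 among these (0.32 with it, 0.33 without).

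At the other end was mmu-miR-666-5p, with wild-type levels of -2.04 and -3.63 and knockout levels of -3.38 and -3.53. Here wild-type replicate 1 was the high sample, and on the sample-median scale wild-type replicate 2 was the lowest of all. The relative log2 fold change of -0.88 became -0.13 without wild-type replicate 1. The levels of mmu-miR-496, a late assay with a mean Ct of 33.7, were -5.01 and -5.61 in wild-type samples and -6.00 and -5.40 in knockout samples (relative log2 fold change -0.65, and -0.39 without wild-type replicate 1).

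Of the microRNAs known from dendrites of neurons, mmu-miR-329 differed widely between the knockout samples. Its levels were -3.98 and -3.61 in wild-type but -2.86 and -5.68 in ER-alpha KO replicates 1 and 2, so a single knockout sample was low and the other was the highest of all. Its Ct values were 33.2 and 30.97 in wild-type samples and 31.1 and 33.5 in knockout samples. The relative log2 fold change was -0.74, with a knockout SD of 1.99 (n = 2), and -0.97 without wild-type replicate 1. It was -1.998 without ER-alpha KO replicate 1 and turned to 0.41 without ER-alpha KO replicate 2, so its direction rested on that sample. The levels of mmu-miR-134, which limits the growth of dendritic spines, were 2.998 and 1.39 in wild-type samples and 2.799 and 1.77 in knockout samples. The samples numbered 1 were higher in both genotypes, which held for 14 of the 26 tested cluster assays. The relative log2 fold change of mmu-miR-134, -0.17, became 0.60 without wild-type replicate 1 and 0.09 without ER-alpha KO replicate 2. The assay mmu-miR-381 was the only one whose knockout samples both lay below the wild-type samples on the sample-median scale. They stood at -4.07 and -4.30, and the wild-type samples at -3.996 and -4.02, so the groups nearly touched on that scale. Its relative log2 fold change was -0.44 with and -0.46 without wild-type replicate 1.

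In the miR-376 group, whose members are known to be edited from A to I within the seed, mmu-miR-376b had the widest spread of the tested cluster assays in wild-type. Its levels were 1.99 and -1.27 in the wild-type samples and 0.95 and -0.97 in the knockout samples, high in both samples numbered 1 and low in both numbered 2. It was 1 of the 14 tested cluster assays that were higher in replicate 1 in both genotypes. Its relative log2 fold change was -0.63, which turned to 0.96 without wild-type replicate 1 and to -2.22 without wild-type replicate 2, where the log2 fold change itself, -2.0002, passed (limma adjusted p = 0.0226). It was 0.08 without ER-alpha KO replicate 2 and -1.44 without ER-alpha KO replicate 1. The direction therefore rested on which samples were kept. For mmu-miR-376a, which differs in sequence at 3 of 21 positions, the levels were 2.98 and 1.73 in wild-type samples and 2.25 and 2.00 in knockout samples, with a relative log2 fold change of -0.50, and 0.09 without wild-type replicate 1.

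In the pair mmu-miR-495 and mmu-miR-543, whose sequences are alike outside the seed, wild-type replicate 1 was the low sample for both. Levels of mmu-miR-543 were -2.01 and 0.20 in wild-type samples and -0.89 and 0.04 in knockout samples, and the relative log2 fold change was 0.22 with and -0.92 without that sample, and -0.50 without ER-alpha KO replicate 2. Levels of mmu-miR-495 were 2.001 and 2.54 against 2.76 and 2.63, with 0.16 and -0.15, and -0.03 without ER-alpha KO replicate 2. The rat assay rno-miR-543 amplified in wild-type replicate 1 only, at cycle 33.0. The remaining tested assays, mmu-miR-323-3p, mmu-miR-379, mmu-miR-380-5p, mmu-miR-382, mmu-miR-409-5p, mmu-miR-494, mmu-miR-544, mmu-miR-667, rno-miR-381 and rno-miR-758, had relative log2 fold changes between -0.49 and 0.26 with all samples. Of these, mmu-miR-323-3p, mmu-miR-379, mmu-miR-382, mmu-miR-494, mmu-miR-544 and rno-miR-758 changed sign when some single sample was left out.

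Both arms had assays for 4 hairpins, and for the 3 whose arms both amplified the same arm was the earlier one in every sample. For miR-409, wild-type Ct values were 25.2 and 23.1 for the 3p assay and 32.3 and 30.8 for the 5p assay, and knockout values were 23.2 and 23.3 against 31.04 and 31.5. The 5p assay was thus later by 7.02 and 7.69 cycles in wild-type and by 7.81 and 8.21 in knockout samples. These gaps did not overlap between the genotypes, but the nearest were close, 7.69 in wild-type and 7.81 in knockout. The gap of 7.02 in wild-type replicate 1 is a difference of whole-cycle readings. The gaps were not tested. For miR-380, wild-type Ct values were 35.3 and 34.2 for the 3p assay and 28.3 and 26.7 for the 5p assay, and knockout values were 34.01 and 34.7 against 26.6 and 26.7. The 5p minus 3p difference was -7.001 and -7.55 cycles in wild-type and -7.44 and -7.96 in knockout samples, which overlap. For miR-369, wild-type Ct values were 35.2 and 33.2 for the 3p assay and 31.2 and 28.98 for the 5p assay, and knockout values were 32.4 and 33.8 against 29.5 and 28.97. The 5p minus 3p difference was -3.97 and -4.19 cycles in wild-type and -2.92 and -4.84 in knockout samples, so the knockout samples enclosed the wild-type ones. Of the miR-654 assays, the 3p assay was read at cycle 31.3 in wild-type replicate 1 only, and the 5p assay amplified in none of the samples. A gap between arms mixes their levels with the efficiency of the assays, so only its change across samples can be read.

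Mouse and rat assays of a hairpin differed as well. For miR-381, wild-type Ct values were 33.2 and 31.4 for the mouse assay and 30.2 and 28.8 for the rat assay, and knockout values were 32.3 and 32.1 against 28.9 and 29.98. The rat minus mouse difference was -2.985 and -2.61 cycles in wild-type and -3.35 and -2.14 in knockout samples, and the knockout samples enclosed the wild-type ones. The rat assay's relative log2 fold change was -0.49, beside -0.44 for the mouse assay. The rat assay rno-miR-409-5p amplified in wild-type replicate 1 only, at cycle 32.3, where the mouse assay of that arm was read at 32.3 too. The assay rno-miR-377 amplified in no sample.

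Of the 12 assays outside the test, 5 were detected in wild-type replicate 1 alone: mmu-miR-679, mmu-miR-654-3p, mmu-miR-453, rno-miR-409-5p and rno-miR-543. That is 13.2% of the cluster, beside 10.7% of the panel. The earliest was mmu-miR-679, which crossed at 23.6 in wild-type replicate 1, at 38.9 in the other wild-type sample and at 35.4 in ER-alpha KO replicate 1, and did not amplify in ER-alpha KO replicate 2. The early reading was thus not shared by the other wild-type sample. In these 5 assays 2 readings of wild-type replicate 1 lay within 0.1 cycle of a whole cycle, where all 26 of its readings in the tested assays did. Over the whole panel 18 of the 40 assays detected in that sample alone did.

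For mmu-miR-377, wild-type replicate 1 was read at 28.2 and ER-alpha KO replicate 2 at 34.9, and it did not amplify in the other 2 samples. The assay mmu-miR-668 had 32.3 and 32.1 in wild-type, and 37.9 and 32.8 in knockout samples, so that ER-alpha KO replicate 1 alone was late. The assay mmu-miR-154 was read at 34.3 in wild-type replicate 1 and 34.5 and 34.3 in knockout samples, and did not amplify in wild-type replicate 2. These readings of mmu-miR-154 lie close to the detection limit. In wild-type replicate 1, mmu-miR-369-3p and mmu-miR-380-3p stood at 35.2 and 35.3, just past the limit of 35, and below it once the constant of that sample is taken off. In the other 3 samples their Ct values ran from 32.4 to 33.8 and from 34.01 to 34.7. Just inside the limit, mmu-miR-496 had 34.2 in wild-type replicate 1.

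**Figure D3:**
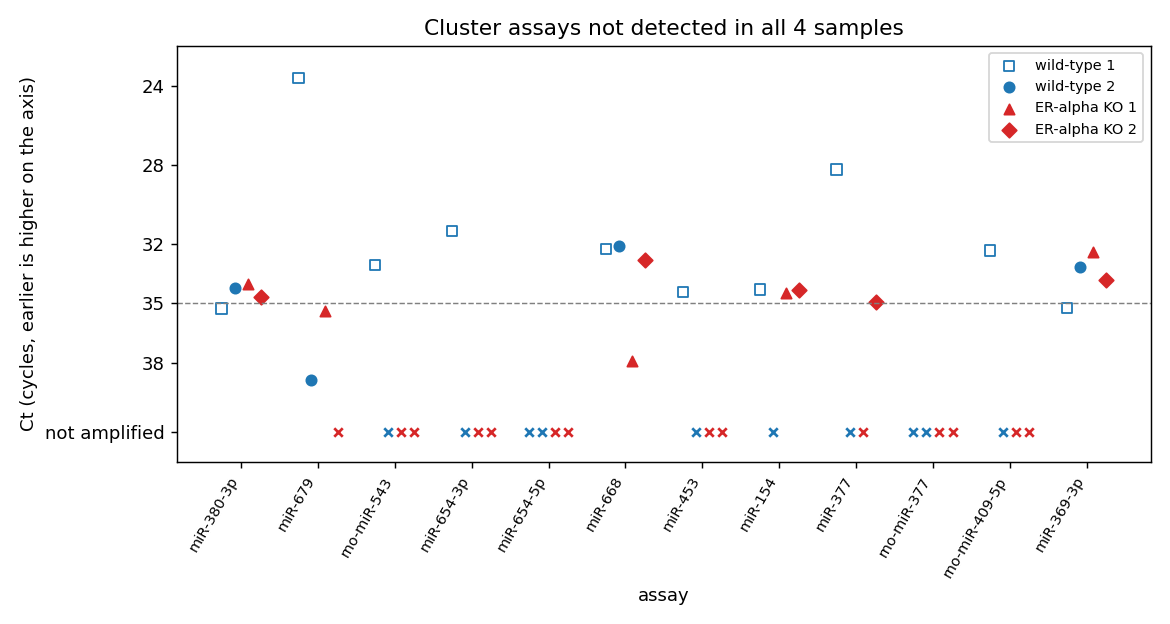
Ct of the 12 cluster assays that were not detected in all 4 samples (y axis in cycles, earlier readings higher; the dashed line is the detection limit of 35 and crosses mark wells without amplification), with 1 marker per sample. In mmu-miR-679 and mmu-miR-377 wild-type replicate 1 stands far above the other samples, at 23.6 and 28.2.

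Position along the cluster was also set against the genotype difference. The 24 hairpins with a tested assay were split in order into the 12 from miR-379 to miR-376c and the 12 from miR-376b to miR-410. The median relative log2 fold change was 0.04 in the first and -0.07 in the last of these, and 0.03 and 0.14 without wild-type replicate 1. Spearman's rho between order and relative log2 fold change was 0.09 over the 24 hairpins with all samples and 0.09 without wild-type replicate 1. The hairpins share the same 4 samples and the value is a description. With all samples, mmu-miR-376c, at 0.32, lies next to mmu-miR-376b, at -0.63, in the order of tested hairpins. Without wild-type replicate 1 both were above the median of all assays, at 0.33 and 0.96. Without ER-alpha KO replicate 2 both were above it too, at 0.18 and 0.08, so this contrast rests on which samples were kept.

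The other microRNAs of the Dlk1-Dio3 domain lie upstream of miR-379, among them those antisense to Rtl1, such as miR-127 and miR-136, which cleave that transcript. They had 15 assays, of which 12 were tested. By limma 0 of the 12 passed in either direction over all assays, and 0 had an unadjusted p under 0.05. Their median relative log2 fold change was 0.13 with 7 of 12 above 0, and -0.08 without wild-type replicate 1, where the cluster's was -0.12 and then 0.13. The difference between the lists was not tested. The highest was mmu-miR-493, with Ct values of 32.2 and 30.4 in wild-type and 30.1 and 29.9 in knockout samples (relative log2 fold change 0.74, and 0.73 without wild-type replicate 1). The lowest was mmu-miR-665, with 31.2 and 30.8 in wild-type and 31.2 and 31.8 in knockout samples (-1.05, and -0.38).

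**Figure D4:**
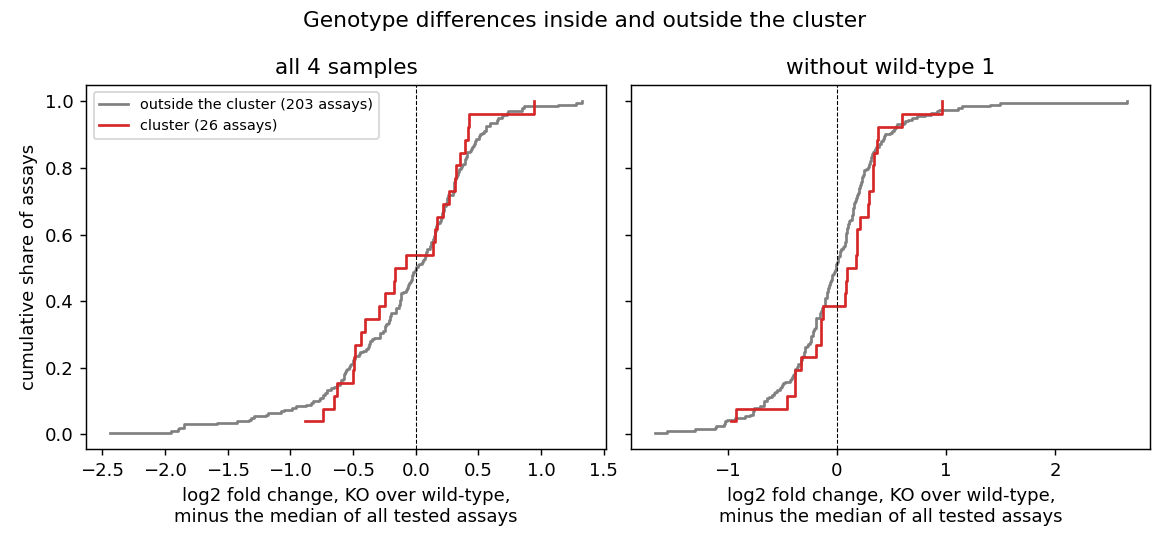
Cumulative share of assays (y axis) by log2 fold change of ER-alpha KO over wild-type minus the median of all tested assays (x axis), for the 26 cluster assays and the 203 others, with all 4 samples (left) and without wild-type replicate 1 (right). On the left the cluster spans -0.88 to 0.95 and all assays -2.44 to 1.33. Of the cluster assays 12 of 26 lie above 0 on the left and 16 of 26 on the right.

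Markers of the tissues in a whole embryo were present: 7 of 8 neural, 5 of 6 striated-muscle and 7 of 7 blood-cell assays were detected in all samples, as was the liver microRNA mmu-miR-122, and 0 of 11 placental or pluripotent assays were, 6 of which were detected in no sample. Median relative log2 fold changes were 0.16 for striated muscle (3 of 5 above 0), 0.37 for blood (6 of 7) and 0.52 for mmu-miR-122, and 0.20, -0.16 and 0.31 without wild-type replicate 1. By limma 0 assays of these lists passed, adjusted or not. Neural microRNAs bear on the cluster, which is abundant in brain. Their median level was -0.01 and 0.41 in the wild-type samples, -0.10 and 0.56 in the knockout samples, and the groups overlapped. Their median relative log2 fold change was 0.07 with 4 of 7 above 0, and 0.05 without wild-type replicate 1. Their part in the cluster's values was not tested. By limma 0 of the 7 passed, and 1, mmu-miR-138 (higher in knockout), had an unadjusted p under 0.05, beside 4.37% of all tested assays. Its relative log2 fold change was 1.13, and 0.43 without wild-type replicate 1. That of mmu-miR-124 went the other way, at -1.18, and -0.59 without that sample. Fewer cells of a type and less RNA per cell cannot be told apart in such samples.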

How the data were processed

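Per the labels' protocols, TRIzol total RNA was assayed by TaqMan microRNA PCR for 40 cycles. The file headers call the deposited column Ct, the threshold cycle. The threshold, baseline, assay version and any normalization are not given in the sources used here. Wells without amplification and the 39 wells of wild-type replicate 1 above the last cycle were treated as not amplified, and 4 U6 wells were averaged. Lines without an assay were left out. The cluster members, lists and tests were chosen with earlier results of these data known. Each sample was centred on its median Ct over the 229 microRNAs with a Ct of 35 or lower in all samples, and the level is minus that centred Ct in log2 units. The genotypes were compared by a two-sided moderated test of limma (version 3.58.1, under R 4.3.3) with genotype as the only term, and Benjamini-Hochberg adjustment over the 229. The prior degrees of freedom were estimated as infinite, so all assays share 1 pooled variance and 1 standard error. The procedure was run on simulated data with planted changes far larger than any in the cluster. That run does not show how well smaller changes are found. Python 3.11.15, pandas 2.3.3 and matplotlib 3.10.9 were used for tables and plots. PCR gives no counts; 2 samples per group and 1 well per assay limit the precision. Values in every sample are given by a rule: the earliest, highest and lowest assays, of those whose groups do not overlap at most the 6 with the largest change in each direction, arm and species pairs, and partly detected assays with extreme values. The assays mmu-miR-134, mmu-miR-379, mmu-miR-376a, mmu-miR-376c, mmu-miR-495, mmu-miR-154, mmu-miR-493, mmu-miR-665, mmu-miR-138 and mmu-miR-124 fall outside that rule and were chosen after their values were seen.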

Additional observations from a re-analysis of the deposited data

How the results depend on the processing

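Over the alternatives that kept all samples, the number of cluster assays past the threshold stayed at 0. These were the 5 small-RNA controls as scale, unscaled Ct, quantile normalization, centring on the average profile or on assays outside the cluster, a Ct limit of 32, no filter, wild-type replicate 1 less its constant, ordinary variances, trend and robust settings, and the replicate number as a replicate block (count 0, smallest limma adjusted p = 0.367). Leaving out 1 sample gave 0 to 2, the 2 being mmu-miR-376b and mmu-miR-539 without wild-type replicate 2, where the lone wild-type sample is assumed to vary like the knockout samples and 13 of all assays passed. The labels do not say what a replicate number marks, and with 2 pairs (r = 0.37 between same-numbered deviations over all tested assays) the samples were not treated as pairs. The cluster's median log2 fold change ranged from -0.17 (average profile) to 0.43 (unscaled) with all samples and from -0.01 to 0.49 with 1 left out; its relative median ran from -0.12 to 0.07 and from -0.23 to 0.13, the last without wild-type replicate 1. Assays detected in all samples numbered 21 at a Ct of 32, 28 without the constant and 29 with any amplification. Of 385 relative values of single assays under an alternative, 368 moved by less than the spread between replicates (SD 0.70) and 17 by more. All 17 came from leaving out a sample. Many of the 368 could not move. A shift common to all assays, other variances or the replicate block leaves a relative value as it was. The 368 are therefore no measure of stability. Late assays near the limit of 35 are the least certain.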
